A study of Mus musculus with 4 samples.

Results

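The minichromosome maintenance helicase, the replicative polymerases, the enzymes that make thymidine nucleotides, and the factors that rebuild chromatin behind the fork are encoded by genes that a cell uses together when it copies its genome. Here 44 such genes of DNA replication and S phase were followed in the single-cell transcriptomes of 4 neural stem cell (NSC) lines of the mouse. These members were taken by name from a list and not by a measured value, though the list was chosen with earlier results of these data known. The 4 tables of normalized values together listed 17419 genes, and all 44 members were listed in each of the 4. They were also listed in the 3 tables of read counts, from XN4, XN1, and CN4.

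All 4 lines were derived from epiblast stem cells of the 129/Sv strain and grown in a medium with EGF and FGF2, each at 10 ng/ml. XN4 and XN1 additionally received 10 µM XAV939 (XAV, a tankyrase inhibitor that dampens Wnt signaling), obtained from supplier B for XN4 and from supplier A for XN1. The paper reports that XAV from supplier A formed crystals in the medium, and it holds that the effective dose for XN1 was therefore lower. KN1 received neither agent, and CN4 received 2 µM CHIR99021 (CHIR, a GSK3 inhibitor that activates Wnt signaling). The study asked how the level of Wnt signaling sets the regional identity of NSCs, and the members were examined as a measure of how many cells of each line carried transcripts of replication. The growing cells were stored in a preservative in the cold before loading, and 1 library on the BD Rhapsody platform, in which cells settle in microwells with barcoded beads, was made from each line. Each line is therefore 1 culture and 1 library, so line, agent, supplier, and library cannot be told apart, no test between lines was made, and each interval below covers counting error only.

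Replication is prepared in G1, when the origin recognition complex (Orc1, Orc6), Cdc6, and Cdt1 load the Mcm2 to Mcm7 ring onto DNA, a step called licensing that geminin (Gmnn) blocks once S phase has begun. Cdc45, the GINS complex (Gins1 to Gins3 among the members), and Mcm10 then turn the ring into an active helicase, polymerase alpha with primase starts each strand, and polymerases delta and epsilon extend it on the sliding clamp Pcna, which the Rfc complex loads. E2F factors, released in late G1 by cyclin E (Ccne1, Ccne2) and other kinase partners, are known to activate most of these genes together. The division of neural stem cells in culture depends on EGF and FGF2, and replication transcripts are widely used to mark cells about to enter or within S phase.

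The normalized tables held between 3448 and 3975 cells and between 19271688 and 41539513 reads for a line. They were made by the authors as natural log values and were turned back into reads before use. A cell counted as capturing a transcript when it held 1 read or more, and, since deeper cells capture more genes, cells were thinned at random to 3200 reads, which left between 3129 and 3396 cells of a line. Level means the reads of a gene per 1000000 reads of its line, pooled over all cells. As reads were not collapsed to molecules, the intervals of levels and of their ratios treat reads of the same molecule as independent and are too narrow. A level also depends on how often each molecule was read. In this, the KN1 library stood apart: a thinned cell of KN1 had a median of 766 genes against 1648 to 1847 in the other 3 lines, and a cell that captured a member held a median of 5.57 reads of it against 1.48 to 2.81. The markers of the labelled cell type were also captured unequally between the lines. Sox2, a defining neural stem cell factor, was captured in 62.2% of cells of XN1, 83.9% of CN4, and 13.9% of KN1 but in 0.56% of XN4, where Sox1, Sox3, and Fabp7 were not listed and 8 of 9 connective tissue genes were captured in at least 10% of cells. Of the 9 neural stem genes, 3 were captured in at least 10% of cells in XN4, Vim among them (84.4%), against 8 for XN1, 5 for KN1, and 9 for CN4. Their summed levels were 1635, 3802, 2094, and 8048, respectively. Sox1 was also not listed in XN1. The summed level of the connective tissue genes was 8371 in XN4 and 7.66 to 197 in the other lines, and their part in the values of XN4 was not tested. Between 14 and 21 cell barcodes were shared by any pair of lines, and doublets were not removed. No group of cells that should lack the members was at hand, so the share of captures from free RNA was not measured.

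In thinned cells, members were captured most often in CN4. The fraction of cells with a read was highest in CN4 for 41 of 44 members, highest in KN1 for 2 (Pola1 and Pole), and highest in XN4 for 1 (Dut). The lowest fraction was in KN1 for 29 members, in XN4 for 9, and in XN1 for 6. Such ranks were not counted over all genes. By this fraction, 62.5%, 59.4%, and 56% of all genes were at least 2-fold higher in CN4, XN1, and XN4 than in KN1. In CN4 against XN1, 7.07% of all genes were higher and 8.38% lower, beside 15 and 0 members. Pcna (chr2:132249162-132253314, minus strand, GRCm38), the clamp that holds polymerases on DNA, was captured in 15.3% of XN4, 26.9% of XN1, 5.57% of KN1, and 51.8% of CN4 cells, with exact binomial 95% intervals of 14.1 to 16.6, 25.3 to 28.5, 4.82 to 6.39, and 50.0 to 53.6. These intervals do not overlap, and the order was CN4, XN1, XN4, KN1. The median over members was 14.4% in CN4, 8.05% in XN1, 7.06% in XN4, and 5.43% in KN1. Among the 3 lines without KN1, CN4 had the highest fraction for 43 members, and among the 3 lines without XN4 for 42. These ranks, too, were not counted over all genes.

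**Figure D1:**
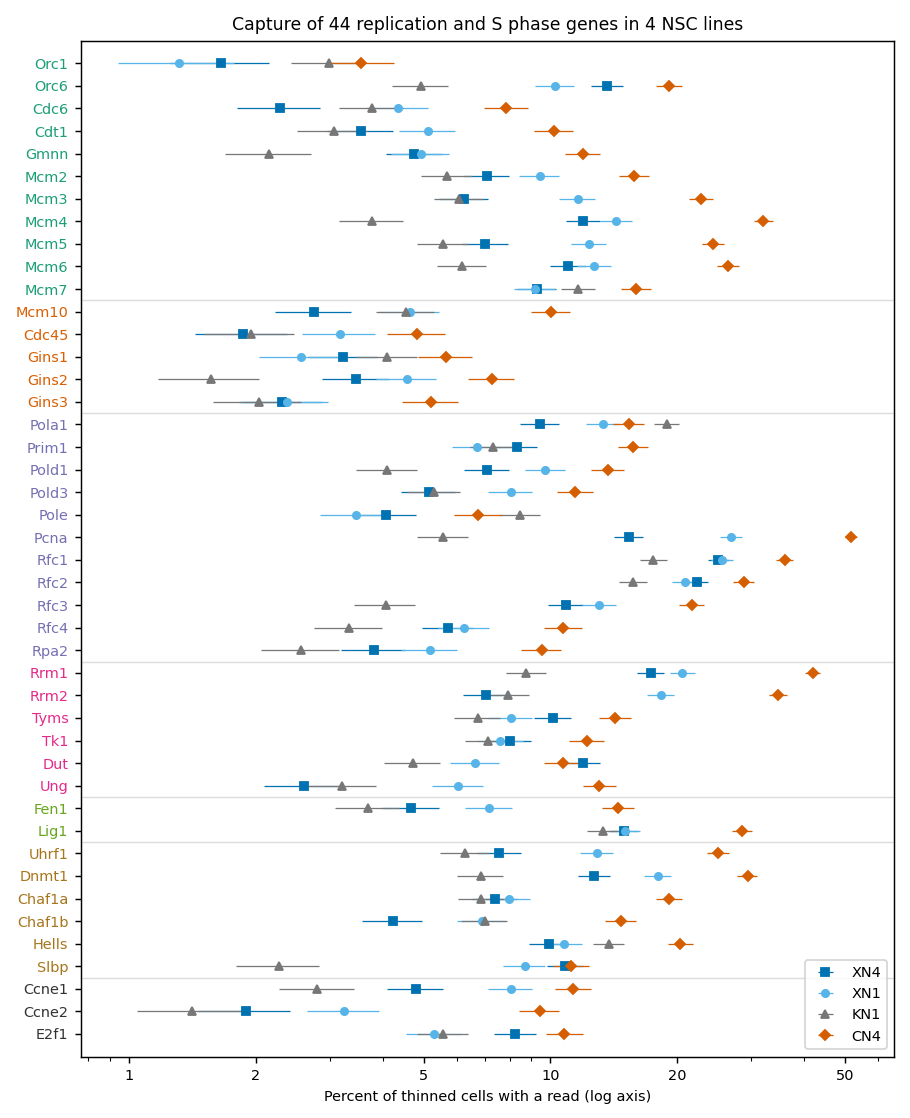
Percent of cells with at least 1 read of each of the 44 members after thinning to 3200 reads per cell (horizontal log axis), by line, with exact binomial 95% intervals that cover counting error only; gene names are colored by role. CN4 (diamonds) lies farthest right for 41 members, with Pcna at 51.8%, and KN1 (triangles) farthest left for 29, while Pola1, Pole, and Dut do not have CN4 on the right.

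CN4 was first set against XN1, the line with the Wnt inhibitor whose library was most like that of CN4 in genes per thinned cell and in reads per captured gene. Every member had the higher level in CN4, as did 7047 of all 12282 genes compared. With 2-fold as the threshold, 22 of 44 members were higher in CN4 and 0 were lower, while of all 12282 genes compared 8.33% were higher and 9.29% lower. The median log2 ratio of the members was 1.00, a fold of 2, against 0.10 over all genes. The counting interval of the ratio lay above 0 for all 44 members. Such intervals are too narrow, as reads are not molecules, and the share of all genes with an interval above 0 was not counted. After subtracting the median of all genes, 13 members were past 2-fold in CN4, beside 7.03% of all genes higher and 10.5% lower.

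Among the 11 licensing genes, 8 were past 2-fold. Mcm4, a subunit of the helicase ring at chr16:15623897-15637400, had levels of 70.5 in XN4 and 70.9 in XN1, against 36.4 in KN1 and 183 in CN4, a log2 ratio of CN4 over XN1 of 1.37 (95% interval 1.28 to 1.46). Mcm6 had levels of 68.1 in XN4 and 61.7 in XN1, against 65.7 in KN1 and 141 in CN4, and Mcm5 of 47.4 in XN4 and 64.6 in XN1, against 58.4 in KN1 and 129.7 in CN4. For each of these ring subunits CN4 was above the other 3 lines. Mcm3 was at 30.6 in XN4 and 52.9 in XN1, against 58.9 in KN1 and 109 in CN4, so that XN4 had the lowest level. Orc6 was at 65.9 in XN4 and 41.5 in XN1, against 50.2 in KN1 and 85 in CN4. Cdt1, which brings the ring to the origin, was at 17.3 in XN4 and 20.3 in XN1, against 26.8 in KN1 and 44.6 in CN4, and its gene is overlapped on the same strand by the annotated transcript Gm20388, from which its reads might not be separated. Gmnn, the inhibitor of Cdt1, was at 30.2 in XN4 and 21.1 in XN1, against 21.7 in KN1 and 50.2 in CN4, and thus both the loader and its inhibitor had their highest level in CN4. Orc1, the largest subunit of the origin recognition complex, departed from this order with 6.6 in XN4 and 5.09 in XN1, against 29.4 in KN1 and 12.8 in CN4. Its ratio of CN4 over XN1 was 1.33 on the log2 scale, with the wide interval of 0.99 to 1.67 that 98 reads in XN1 allow. The 3 licensing genes under 2-fold were Cdc6 (0.95), Mcm7 (0.85), and Mcm2 (0.75 on the log2 scale).

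Of the 5 genes of helicase activation, Gins1 and Gins3 were past 2-fold. Gins1 had levels of 14.7 in XN4 and 8.93 in XN1, against 39.7 in KN1 and 22 in CN4, and Gins3 of 11.2 in XN4 and 9.34 in XN1, against 20.2 in KN1 and 20.4 in CN4, so that Gins1 was highest in KN1 and Gins3 was at about the same level in KN1 and CN4 (log2 ratio 0.016). By the fraction of thinned cells CN4 was above KN1 for both, with 5.64% and 4.09% for Gins1 and 5.19% and 2.03% for Gins3. The log2 ratios of CN4 over XN1 were 1.30 and 1.13, respectively. Mcm10 was just under the threshold at 0.99, followed by Gins2 (0.71) and Cdc45 (0.61).

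The 11 genes of polymerases, clamp, and loader covered the widest range. Pcna had levels of 110.2 in XN4 and 158 in XN1, against 56.5 in KN1 and 409 in CN4, and its log2 ratio of CN4 over XN1 was 1.37 (1.31 to 1.43). Prim1, the catalytic primase subunit, was at 39.6 in XN4 and 28.3 in XN1, against 79.1 in KN1 and 69 in CN4, and Pole, the catalytic subunit of polymerase epsilon, at 16.5 in XN4 and 13.5 in XN1, against 77.7 in KN1 and 27.8 in CN4. These were the 3 members of the group past 2-fold between CN4 and XN1, but by level KN1 was lowest for Pcna and highest for Prim1 and Pole. The fraction of thinned cells with Prim1 was 15.7% of CN4 and 7.3% of KN1 cells, and that with Pole was 6.74% and 8.48%, so that the order turned for Prim1. Pola1, the catalytic subunit of polymerase alpha, had the lowest ratio of all members at 0.25 (0.14 to 0.37), with levels of 47.6 in XN4 and 57.3 in XN1, against 264 in KN1 and 68.3 in CN4. The clamp loader subunits Rfc1 to Rfc4 had log2 ratios of 0.64, 0.60, 0.87, and 0.79, and all were under 2-fold. Pcna has 2 annotated pseudogene copies, and how reads were shared with them was not tested.

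Among the 6 genes of nucleotide supply and uracil removal, Ung and Rrm1 were past 2-fold. Ung, the glycosylase that removes uracil from DNA, was at 15 in XN4 and 25.5 in XN1, against 35.5 in KN1 and 59.7 in CN4, with a log2 ratio of CN4 over XN1 of 1.23. Rrm1 and Rrm2 form the ribonucleotide reductase that makes deoxynucleotides. Rrm1 was at 105 in XN4 and 107 in XN1, against 91.4 in KN1 and 234 in CN4, and Rrm2 at 45.9 in XN4 and 118 in XN1, against 75.9 in KN1 and 215 in CN4. The subunits thus differed in their order, as Rrm1 had similar levels in XN4 and XN1 whereas Rrm2 did not. Both members of Okazaki fragment maturation were past 2-fold, the flap nuclease Fen1 with 28 in XN4 and 29.3 in XN1, against 32.2 in KN1 and 62.8 in CN4 and the ligase Lig1 with 103 in XN4 and 81.7 in XN1, against 147 in KN1 and 164 in CN4.

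Of the 6 genes of chromatin and histone supply, 3 were past 2-fold. Chaf1a and Chaf1b, subunits of the factor that deposits histones behind the fork, were at 37.6 in XN4 and 33.6 in XN1, against 72.5 in KN1 and 80.8 in CN4, and at 25.7 in XN4 and 33.2 in XN1, against 102 in KN1 and 66.8 in CN4, respectively. The chromatin remodeler Hells was at 53.3 in XN4 and 48.9 in XN1, against 165 in KN1 and 103 in CN4. For both Chaf1b and Hells KN1 had the highest level, but the fraction of thinned cells was higher in CN4, with 14.7% and 6.98% of CN4 and KN1 cells for Chaf1b and 20.4% and 13.8% for Hells. Uhrf1 and Dnmt1, which copy DNA methylation to the new strand, had levels of 41.1 in XN4 and 61.8 in XN1, against 49.1 in KN1 and 120.1 in CN4 for Uhrf1 and of 71.7 in XN4 and 82.7 in XN1, against 65.3 in KN1 and 154 in CN4 for Dnmt1, and their log2 ratios of CN4 over XN1 were 0.96 and 0.90. Slbp, which binds the stem loop of histone mRNA, was at 53.6 in XN4 and 32.6 in XN1, against 18.3 in KN1 and 45.5 in CN4 and had the lowest ratio of the group (0.48). Among the G1/S regulators, Ccne2 had the highest ratio of all 44 members at 1.61 (1.41 to 1.81), with levels of 10.8 in XN4 and 14.2 in XN1, against 11.4 in KN1 and 43.1 in CN4, and E2f1 was just past the threshold (1.00), with 33.4 in XN4 and 22.3 in XN1, against 50.7 in KN1 and 44.5 in CN4. Ccne1, the other cyclin E, had a lower ratio of 0.63 (0.49 to 0.77), and the difference within the cyclin pair was not tested.

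**Figure D2:**
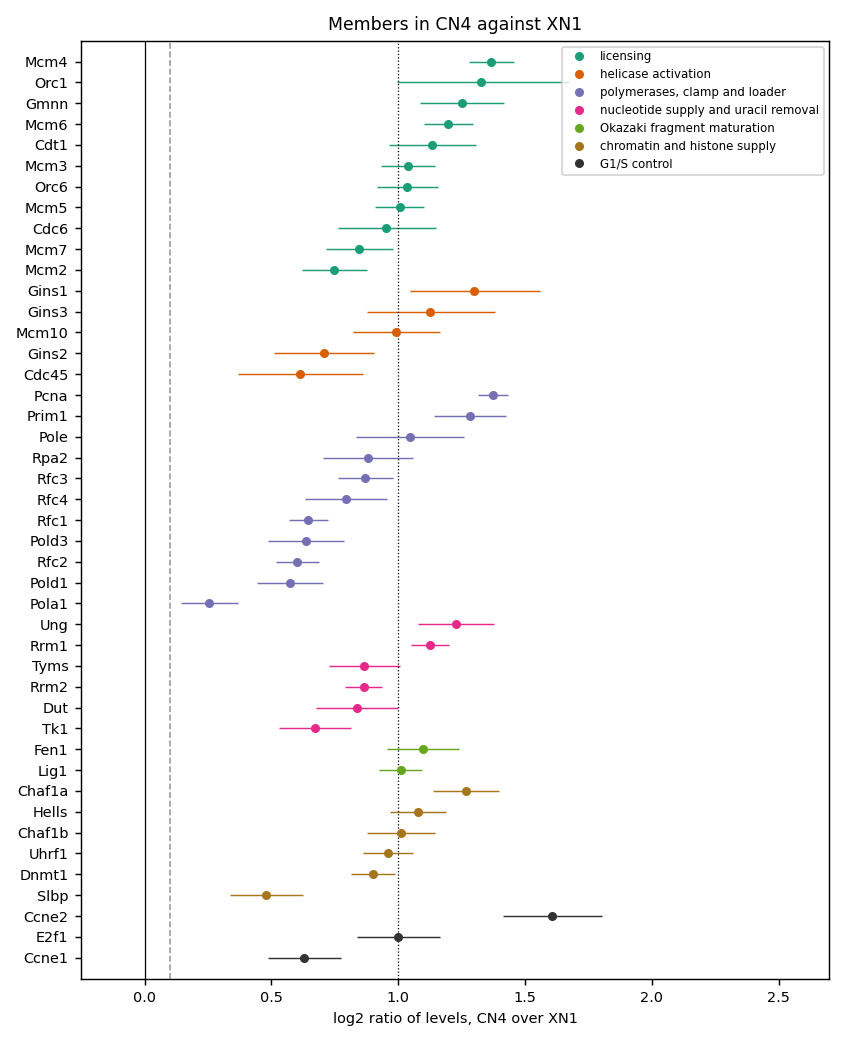
log2 ratio of the level in CN4 over that in XN1 for each member, sorted within its role, with 95% counting intervals from exact binomial limits on the reads of both lines. The solid line marks 0, the dashed line the median of all genes (0.10), and the dotted line 2-fold. All 44 points lie right of 0, from Pola1 at 0.25 to Ccne2 at 1.61, and 22 lie at or past 2-fold.

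Genes of the same process outside the list were also mostly higher in CN4 than in XN1. Of all 12282 genes compared, 8.33% were at least 2-fold higher in CN4 than in XN1, 9.29% were lower, and 7047 were above 0. Of 55 other replication genes, 19 were at least 2-fold higher and 1 was lower, with a median log2 ratio of 0.77 and 51 of 55 above 0. The largest ratios were those of Ticrr (1.62), a regulator of helicase activation, Dna2 (1.55), a nuclease of Okazaki fragments, and Nasp (1.53), a histone chaperone. The gene that was lower was Pold4 (-1.78), the smallest subunit of polymerase delta. The 20 genes of G2 and mitosis were likewise all above 0, but 3 of 20 were past 2-fold, and their median was 0.83. With bulk levels, more cells in S phase and more transcript per such cell cannot be told apart, and the values per cell are given further on.

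Next, each line with an agent was set against KN1, which was grown with EGF and FGF2 alone. These 3 comparisons share the KN1 library. By level, 12 of 44 members were at least 2-fold higher and 3 lower in CN4, where 21.4% of all genes were higher and 20.7% lower. In XN1, 1 member was higher and 12 were lower, beside 23% and 23.9% of all genes. In XN4, 1 was higher and 12 were lower, beside 22.2% and 21.7% of all genes. The share of members higher in CN4 and the shares lower in XN1 and XN4 were thus near those of all genes, and the shares in the opposite direction were below them. The medians of the members were 0.49 in CN4, -0.44 in XN1, and -0.50 in XN4 on the log2 scale, where those of all genes lay between 0.022 and 0.086. Of the 55 other replication genes, 7 were higher and 6 lower in CN4 than in KN1, with 28 above 0. In XN1 6 were higher and 24 lower, and in XN4 5 were higher and 24 lower. Their medians were 0.017 in CN4, -0.83 in XN1, and -0.62 in XN4.

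The members differed in direction in these comparisons. Higher in CN4 than in KN1 were Pcna (log2 ratio 2.86), Mcm4 (2.33), Ccne2 (1.92), Rrm2 (1.5), Rfc3 (1.37), Rrm1 (1.35), Slbp (1.31), Uhrf1 (1.29), Dnmt1 (1.24), Gmnn (1.21), Mcm5 (1.15), and Mcm6 (1.11). Lower were Pola1 (-1.95), Pole (-1.48), and Orc1 (-1.20), although the fraction of thinned cells with Orc1 was higher in CN4 (3.55% against 2.97%). The same 3 genes were also past 2-fold lower in XN1 and XN4, where the values were -2.20 and -2.47 for Pola1, -2.53 and -2.24 for Pole, and -2.53 and -2.16 for Orc1. The other members lower in XN1 than in KN1 were Gins1 (-2.15), Hells (-1.76), Chaf1b (-1.61), Prim1 (-1.48), Mcm7 (-1.38), Cdc6 (-1.27), E2f1 (-1.19), Gins3 (-1.11), and Chaf1a (-1.11). For Cdc6, Gins3, and Chaf1a the fraction of thinned cells was instead higher in XN1 (4.35% against 3.77%, 2.36% against 2.03%, and 7.96% against 6.86%). In XN4 the other members lower were Chaf1b (-1.98), Cdc6 (-1.76), Hells (-1.63), Gins1 (-1.44), Mcm10 (-1.43), Ung (-1.24), Mcm7 (-1.23), Pold3 (-1.13), and Cdc45 (-1.10). Of those not yet given, Cdc6 was at 11.8 in XN4 and 16.6 in XN1, against 40.1 in KN1 and 32.2 in CN4. Mcm7, a ring subunit, was at 40.2 in XN4 and 36.3 in XN1, against 94.6 in KN1 and 65.3 in CN4. Mcm10, which helps to activate the helicase, was at 14.4 in XN4 and 20.8 in XN1, against 38.9 in KN1 and 41.3 in CN4. Each was lowest in XN4 or XN1. Rfc3 was at 55.1 in XN4 and 52.3 in XN1, against 37.1 in KN1 and 95.5 in CN4. The helicase cofactor Cdc45 was at 7.78 in XN4 and 11.1 in XN1, against 16.7 in KN1 and 17 in CN4. Pold3, an accessory subunit of polymerase delta, was at 23.8 in XN4 and 29.7 in XN1, against 52.1 in KN1 and 46.1 in CN4. KN1 had the highest level of Cdc6, Mcm7, and Pold3, and it was near CN4 for Mcm10 and Cdc45. The fraction of thinned cells was higher in CN4 than in KN1 for all 5 of these, with 7.85% and 3.77% for Cdc6, 16% and 11.6% for Mcm7, 11.5% and 5.3% for Pold3, 10.0% and 4.53% for Mcm10, and 4.81% and 1.94% for Cdc45. The 1 member higher in XN1 was Pcna (1.49), and the 1 higher in XN4 was Slbp (1.55).

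These values depended on the scale. On the fraction of thinned cells in place of the level, 35 members were at least 2-fold higher in CN4 than in KN1 and 0 lower, where 62.5% of all genes were higher and 5.04% lower. In XN1 17 were higher and 2 lower, and in XN4 8 were higher and 1 lower, beside 59.4% and 6.49% of all genes in XN1 and 56% and 8.51% in XN4. The shares of members higher in XN1 and XN4 were thus below those of all genes. The medians of XN1 and XN4 turned to 0.73 and 0.32. On this scale the median of all genes was itself 1.35, 1.29, and 1.16 in CN4, XN1, and XN4, and relative to it the members were at 0.23, -0.56, and -0.84. The ratio over KN1 was also lower for long genes. Across the 44 members, the log2 ratio of CN4 over KN1 had a Pearson correlation with the log2 of the gene span of -0.57 (Spearman -0.42) and of -0.46 without Pola1 and Rfc1, the longest genes. Over 11547 protein-coding genes it was -0.45. Between CN4 and XN1 it was -0.31 over the members and -0.047 without these 2 genes. Genes are not independent replicates, and the points of each correlation share the same pair of libraries. The span was 327 kb for Pola1 (chrX:93304767-93632155), 51.2 kb for Pole, 35.4 kb for Orc1, and 4.15 kb for Pcna. The median member has 72.8% of its span in introns. Reads in introns were counted in the other 3 lines. The paper names the BD Rhapsody WTA pipeline for its sequence data, but whether intron reads were counted in KN1 is not given in the sources used here. The part of intron reads in the KN1 values was not tested.

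**Figure D3:**
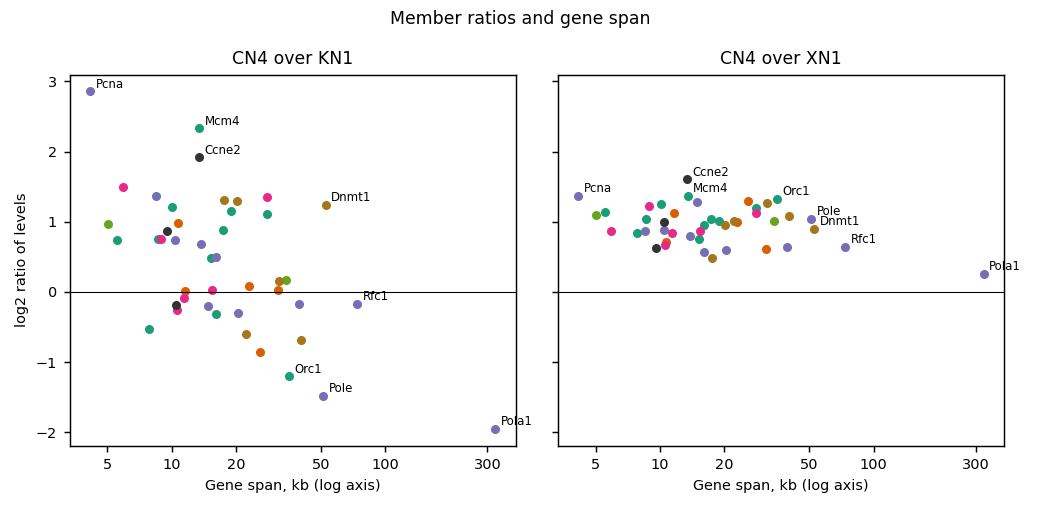
log2 ratio of levels (vertical axis) against the annotated span of each of the 44 members in kb (horizontal log axis), for CN4 over KN1 on the left and CN4 over XN1 on the right; colors are the roles used in the plot of ratios by role. Long genes lie lower on the left, from Pcna at 2.86 to Pola1 at -1.95, and the points on the right lie between 0.25 and 1.61.

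The XAV lines, which differed in the supplier of the inhibitor and, as the paper holds, in its effective dose, were close in most members. By level, 1 of 44 members was at least 2-fold higher and 1 lower in XN4, while 17.5% of all genes were higher and 13.8% lower. The member that was higher was Dut, the enzyme that removes dUTP (1.16 on the log2 scale, interval 1.02 to 1.31), at 53.2 in XN4 and 23.8 in XN1, against 45 in KN1 and 42.4 in CN4. The member that was lower was Rrm2 (-1.36, interval -1.45 to -1.27). The median of the members was 0.031 against 0.12 for all genes, and it was below 0 with equal weight of cells (-0.18), in the tables of all reads (-0.11), and on the fraction of thinned cells (-0.26). In the tables of all reads, Dut was under 2-fold and 0 members were higher. Between the same libraries, 4 of 5 connective tissue genes listed in both were higher and 3 of 6 such neural stem genes lower in XN4.

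How many members a single cell held was counted in the thinned cells. A cell captured a mean of 3.53 members in XN4 and 4.23 in XN1, against 2.71 in KN1 and 7.66 in CN4, with medians of 2, 2, 2, and 6. Cells with 10 or more members were 10.0% of XN4 (exact binomial interval 9.03 to 11.1), 15% of XN1 (13.8 to 16.3), 1.41% of KN1 (1.04 to 1.87), and 33.9% of CN4 (32.2 to 35.6). The cell with the most members held 27 in XN4 and 26 in XN1, against 16 in KN1 and 28 in CN4. Cells without any member were 15.1%, 14%, 20.3%, and 3.96% in the same order. CN4 thus had both the most cells with many members and the fewest with none. The order of XN1 and XN4 depended on the depth and the threshold: the mean was higher in XN1 after thinning, but it was 6.51 in XN4 and 5.57 in XN1 without thinning. In KN1 few cells reached 10 members, and the upper tail was shorter, with a 90th percentile of 6 against 9.7 to 17 in the other lines. Its quartiles of 1 and 4 were the same as those of XN4. A thinned cell held a median of 766 genes in KN1, against 1648 in XN4, 1808 in XN1, and 1847 in CN4. Members per cell were not scaled to these numbers. In fractions of thinned cells relative to the median of all genes, the median log2 ratio of the members over KN1 was -0.84 in XN4, -0.56 in XN1, and 0.23 in CN4. Under thinning to 2000 reads, without thinning, with at least 2 reads for capture, and without the deepest 5% of cells, CN4 kept the highest mean. With at least 2 reads for capture, the mean of KN1 (1.77) was above those of XN4 (1.18) and XN1 (1.13).

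**Figure D4:**
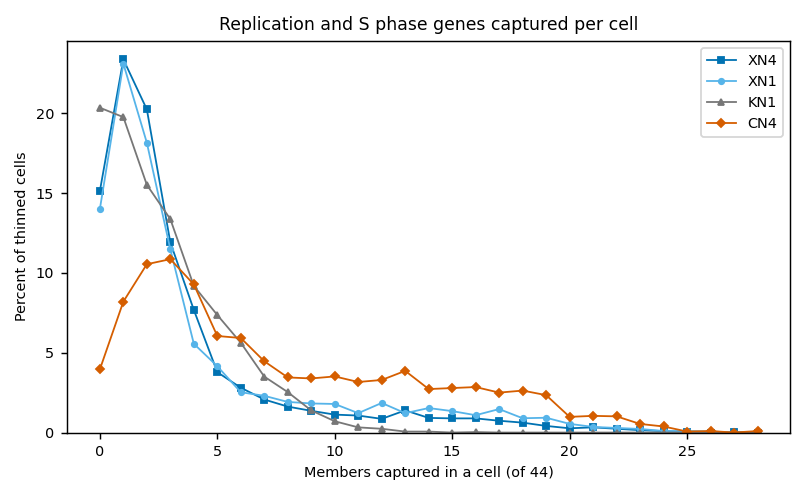
Number of the 44 members captured in a cell (horizontal axis) against the percent of thinned cells with that number, by line. XN4, XN1, and KN1 peak at 0 or 1 member, CN4 at 3, and XN4, XN1, and CN4 reach 27, 26, and 28 members, with 10.0%, 15%, and 33.9% of their cells at 10 or more. Numbers are not scaled to the genes captured per thinned cell, with a median of 766 in KN1 and 1648 to 1847 in the other lines.

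Whether the members occurred in the same cells was examined with Pcna as the anchor. In cells with a Pcna read, the mean number of the other 43 members was 7.95 in XN4 and 8.03 in XN1, against 4.51 in KN1 and 9.85 in CN4, and in cells without one it was 2.55, 2.46, 2.54, and 4.23. Pcna cells of XN4 and XN1 were thus alike in this number, although the lines differed in how many such cells they had. For each member, the fraction of Pcna cells with a read was divided by that of the cells without Pcna. The ratio was at least 1.5 for 42 of 43 members in XN4 and 43 in XN1, against 29 in KN1 and 42 in CN4, where 10.6%, 6.59%, 28%, and 4.67% of all genes passed, respectively. Medians of the members were 3.5, 3.69, 1.9, and 2.51 against 1.04, 1, 1.21, and 0.998 for all genes. In 29 members the ratio was past 1.5 in all 4 lines, and the share of all genes past it in all 4 was not counted. Pcna cells held a median of 936 genes in KN1 against 756 in the cells without Pcna, and the difference was smaller in the other lines (1750 and 1622 in XN4, 1839 and 1797 in XN1, 1862 and 1827 in CN4). Within 10 groups of cells with like numbers of genes, 41, 41, 21, and 41 members passed in XN4, XN1, KN1, and CN4, beside 7.07%, 5.05%, 11.9%, and 3.68% of all genes. With a read of a replication histone gene as the anchor in place of Pcna, 41, 32, 20, and 15 members passed, beside 8%, 5.11%, 13.2%, and 4.22% of all genes, and the medians of the members were 2.4, 1.7, 1.47, and 1.34. The CN4 count thus fell from 42 to 15 with that anchor. Of the 12 histone genes of the list, 9 were listed in CN4. With Pcna, 4 of the 5 that could be tested there passed 1.5, while Hist1h4i was at 0.713.

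Among the members most concentrated in Pcna cells were Cdc6, Ccne2, and Chaf1b. Cdc6, the loader of the helicase ring, was captured in 9.83% (7.4 to 12.7) against 0.908% (0.594 to 1.33) of XN4 cells with and without Pcna, and its ratios were 10.8 in XN4 and 5.5 in XN1, against 1.44 in KN1 and 4.84 in CN4. Ccne2 had ratios of 8.61 in XN4 and 9.23 in XN1, against 1.13 in KN1 and 5.83 in CN4, and in CN4 it was found in 15.7% (14 to 17.6) against 2.69% (1.94 to 3.64). Chaf1b had 7.86 in XN4 and 6.42 in XN1, against 1.15 in KN1 and 3.58 in CN4. These 3 genes held high ratios in XN4, XN1, and CN4 and were under 1.5 in KN1. With the histone anchor Cdc6 had 3.12 in XN4 and 1.25 in CN4, and Ccne2 1.99 and 1.14. Gmnn reached 6.01 in XN1, and Cdc45 had the highest ratio in KN1 (4.16), followed by Rrm2 (3.13) and Fen1 (2.85), and it was also among the 3 highest in CN4 (3.63). In KN1, however, Cdc45 was captured in 66 thinned cells only, and with the histone anchor its ratio there was below 1. The lowest ratios in XN4, XN1, and CN4 were those of Rfc1, with 1.46 in XN4 and 1.52 in XN1, against 1.39 in KN1 and 1.47 in CN4. Rfc1 was found in many cells of both kinds, for example in 42.5% (40.1 to 45) against 28.9% (26.6 to 31.3) of CN4 cells with and without Pcna. Near this lower end were Orc6 (1.68) and E2f1 (1.99) in XN4, Ccne1 (1.73) and Rfc2 (1.76) in XN1, and Rfc2 (1.52) and Rrm1 (1.69) in CN4. In KN1 the lowest were Prim1 (0.639), Gins3 (0.771), and Gins2 (1.02), and another draw of reads gave 0.695, 1.04, and 0.628.

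Beside the members, 48 of 54 other replication genes passed 1.5 in XN4, 44 of 54 in XN1, 30 of 53 in KN1, and 38 of 55 in CN4. Dscc1, a subunit of an alternative clamp loader, had the highest ratio of this list in XN4, XN1, and CN4 (8.56, 8.77, and 6.51). Of the 20 genes of G2 and mitosis, all passed in XN4 and in XN1, 5 in KN1, and 2 in CN4, beside the 10.6%, 6.59%, 28%, and 4.67% of all genes given above. The KN1 count is thus near the share of all genes, and the difference between lines was not tested. Of the neural stem genes, 0 of 4 passed in XN4, 0 of 8 in XN1, 3 of 8 in KN1, and 0 of 9 in CN4. The 9 connective tissue genes had ratios of 0.866 to 1.23 in XN4. Several of them, such as Col3a1 (captured in 97.8% of all XN4 cells), Dcn (87.2%), and Prrx1 (85.9%), were found in most cells, where the ratio has little room to rise, and their part in the ratios of the members was not tested.

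The tables of all reads contained further cells of the same 3 libraries that the authors had not taken into the normalized tables, namely 4814 in XN4, 10547 in XN1, and 14709 in CN4. After thinning these cells to the same depth over the same genes, 42 of 43 members passed 1.5 in each of the 3 lines, with medians of 3.19, 3.33, and 2.51, beside 8.58%, 5.26%, and 3.06% of all genes. The ratio of Ccne2 was 6.36, 6.52, and 5.49 in XN4, XN1, and CN4, and that of Cdc6 was 6.09 in XN4 and 4.19 in CN4. These are other cells of the same cultures and not replicate cultures.

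A second anchor was a list of 20 genes of G2 and mitosis, such as Ccnb1 and Plk1. Cells with reads of at least 3 of them, called G2-M cells here, were 21.4% of thinned cells in XN4 and 26.6% in XN1, against 35.6% in KN1 and 50.2% in CN4. They held a mean of 8.4, 9.18, 3.25, and 9.37 members, against 1.91, 2.03, 1.98, and 4.71 in cells with none of the 20. The cells in between, with 1 or 2 genes of the list, are in neither group. The fraction of G2-M cells with a member divided by that of cells with none was at least 1.5 for 43 of 44 members in XN4 and 44 in XN1, against 22 in KN1 and 34 in CN4, beside 13.3%, 12.4%, 31.6%, and 8.36% of all genes. The median ratios were 5.71, 5.68, 1.51, and 2.14. The ratios were thus lower in CN4 than in XN4 and XN1, while CN4 cells with none of the 20 genes held more members than those of the other lines. The difference in ratios between lines was not tested. G2-M cells of KN1 held a median of 892 genes against 694 in cells with none. Within groups of like gene number, 43, 41, 14, and 26 members passed, beside 10.3%, 11.2%, 16.1%, and 7.97% of all genes, and the medians were 5.14, 3.12, 1.23, and 1.61, so that the median of XN1 in particular was lower than before.

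The members spread over a wider range with this anchor than with Pcna in each line. Tk1, the thymidine kinase of dividing cells, had the highest ratio in XN4, XN1, and CN4, with 47.4 in XN4 and 18.7 in XN1, against 3.56 in KN1 and 7.45 in CN4. Within groups of like gene number it was 6.42 in XN1, below Rrm2 (8.42). In CN4 it was captured in 19.3% (17.4 to 21.4) against 2.59% (1.59 to 3.98) of G2-M cells and of cells with none. Gmnn, known to accumulate from S phase until mitosis, had 21.3 in XN4 and 13.1 in XN1, against 5.29 in KN1 and 4.62 in CN4, and was the highest in KN1. The Gmnn ratio was 5.29 in XN1 within groups of like gene number, and it was 15.5 in KN1 in another draw. In the first draw, 0.705% of the KN1 cells with none of the 20 genes held it. Rrm2 had 23.9 in XN4 and 16 in XN1, against 3.2 in KN1 and 3.91 in CN4, Mcm10 had 25.7 in XN4 and 11.8 in XN1, against 1.91 in KN1 and 3.17 in CN4, and Gins1 had 7.52 in XN4 and 6.84 in XN1, against 1.49 in KN1 and 4.19 in CN4. Another draw gave 44.3 for Mcm10 in XN4, so high ratios of rare members move with the draw. At the other end in CN4 were Ung, Cdt1, and Cdc6. Ung was captured in 9.91% (8.48 to 11.5) against 12.6% (10.3 to 15.1) of the same cells, a ratio of 0.788, although its ratio in Pcna cells of CN4 was 3.39. Cdt1 had 0.945 against 3.41 with Pcna, and Cdc6 had 1.22 against 4.84. In CN4 these 3 genes were thus past the 1.5 call with Pcna and under it in G2-M cells. In XN1 the same genes had G2-M ratios of 2.83, 4.41, and 6.18, and in XN4 of 2.95, 5.9, and 13.3. In XN1 the lowest were Rfc1 (1.72), Ccne1 (1.72), and Pold3 (1.93). In XN4 they were Rfc1 (1.41), E2f1 (1.74), and Orc6 (1.76), and in KN1 they were Ccne2 (0.774), Chaf1b (0.787), and Ung (0.884), while Ccne1 was among the highest in KN1 (3.25) but at 1.14, under the call, within groups of like gene number. In the cells of CN4 outside the normalized table, the ratios of Ung, Cdt1, and Cdc6 were 0.904, 1.03, and 1.14, and those of Tk1 and Gmnn were 5.55 and 4.8.

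By role, the median G2-M ratio in CN4 was 1.57 for licensing, 1.61 for G1/S control, 2.02 for chromatin and histone supply, 2.05 for polymerases, clamp, and loader, 2.49 for Okazaki fragment maturation, 2.86 for nucleotide supply and uracil removal, and 3.04 for helicase activation. Licensing, which includes its inhibitor Gmnn, was thus lowest and helicase activation highest in CN4, while with Pcna their medians in CN4 were 2.74 and 2.75. The order differed in the other lines. In XN1 helicase activation was highest (7.2), but polymerases, clamp, and loader (3.41) lay below licensing (5.11). In XN4 nucleotide supply and uracil removal (7.76) and Okazaki fragment maturation (7.72) lay above helicase activation (7.52), and G1/S control (2.74) and polymerases, clamp, and loader (4.32) below licensing (4.59). In KN1 nucleotide supply and uracil removal was highest (2.56) and G1/S control lowest (1.17). Each median rests on 2 to 11 genes, and the order of the roles was not tested.

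**Figure D5:**
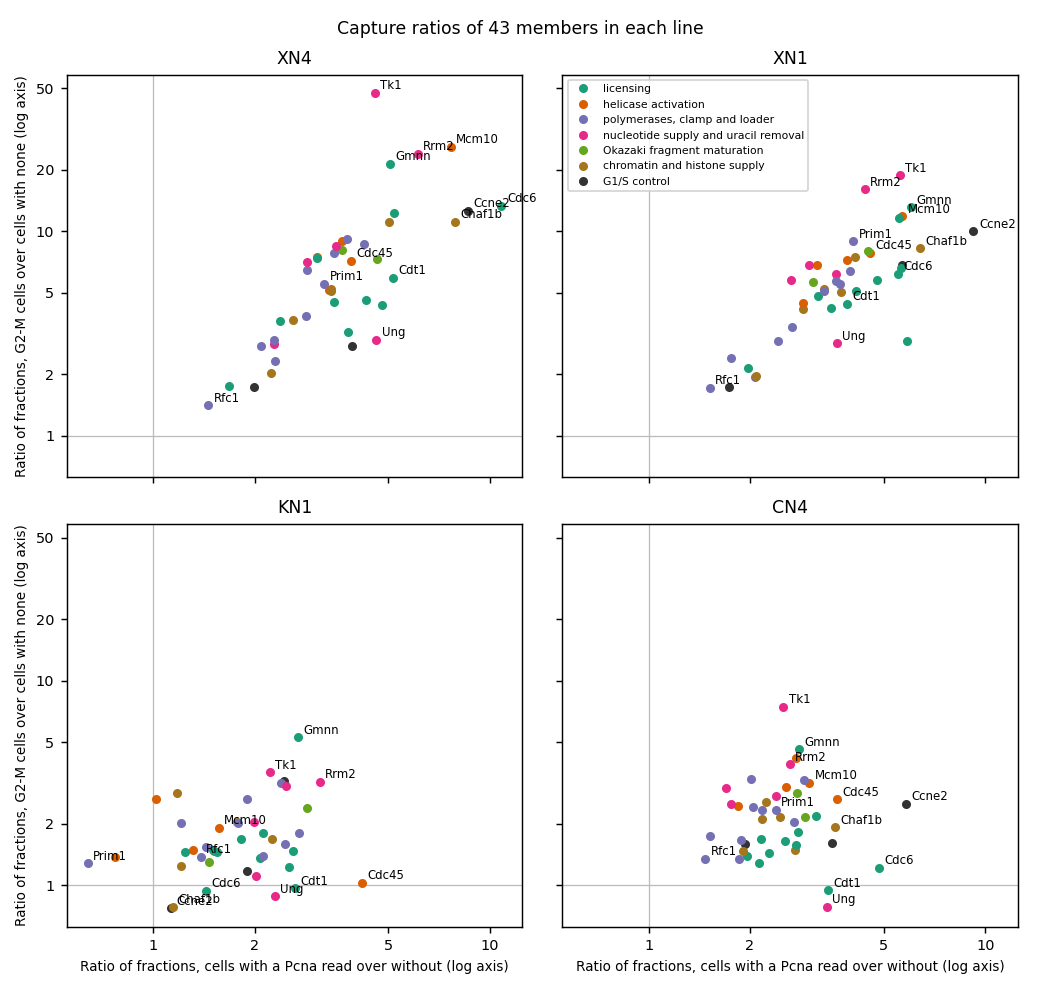
For each line, the ratio of capture in cells with a Pcna read over cells without (horizontal log axis) against the ratio in G2-M cells over cells with none of the G2-M list (vertical log axis); points are 43 members, without Pcna, colored by role, and gray lines mark a ratio of 1. Members form a rising band in XN4 and XN1, with Tk1 at 47.4 and 18.7 on top, while in CN4 Ung, Cdt1, and Cdc6 lie low on the vertical axis but at 3.39, 3.41, and 4.84 on the horizontal axis.

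The genes most alike to the members were sought among 9018 genes captured in at least 1% of the thinned cells of all 4 lines. The measure was the Pearson correlation over cells between a gene and the number of members captured, the gene itself left out, averaged over the lines, each of 3129 to 3396 cells. The cells of a line share a library and, after thinning, a depth, and the values are given as a description. Of the 44 members, 31 were among the first 100 genes, with 13 other replication genes and 3 G2-M genes. Rrm2 (0.48), Lig1 (0.46), and Pcna (0.46) had the highest values of the members, and Orc1 (0.14) the lowest, while the median over all genes was 0.0036. The 10 genes outside the list with the highest values were Top2a (0.47), a topoisomerase that disentangles copied DNA, Pclaf (0.44), a partner of Pcna, the chromatin ATPase Atad2 (0.41), the condensin subunit Smc2 (0.41), Dek (0.41), Fam111a (0.36), Hmgb2 (0.36), the checkpoint mediator Clspn (0.35), the histone chaperone Nasp (0.34), and the tubulin Tuba1b (0.33). Correlations in KN1 were lower than in the other 3 lines for each of them, for example 0.23 for Top2a against 0.40 to 0.64.

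The promoters of the members were read for the letters of the E2F site, the motif by which E2F factors are known to bind genes of S phase. The windows run from 250 bases before to 50 after the start of a transcript (RefSeq, build GRCm38.p6), and 37 of 44 members had at least 1. The letters TTTCCCGC, TTTCGCGC, TTTGCCGC, or TTTGGCGC, on either strand, overlaps included, were found for 16 of 37 members (43.2%), 14 of 43 other replication genes (32.6%), and 0 of 18 G2-M genes, where 2.6% of all 27025 genes with a window hold them. Of all 32851 windows, 2.26% hold them. The letters CCAAT, on either strand, the site of the factor NF-Y, were found for 22 of 37 members, 16 of 18 G2-M genes, and 41.1% of all genes. Members with and without the E2F letters had median log2 ratios of CN4 over XN1 of 0.98 for 16 and 0.88 for 21, and the median Pcna ratios in CN4 were 2.48 and 2.49. Median G2-M ratios with and without the letters were 1.76 and 2.16 in CN4 and 1.48 and 1.91 in KN1, where the Pcna ratios were 1.51 and 2.12. In XN4 and XN1 the Pcna medians were 3.55 and 3.48 and 3.81 and 3.6, and the G2-M medians 5.5 and 5.51 and 4.93 and 5.71, respectively. None of these differences was tested. A match is a description of the letters and not a bound site. Stretches upstream of Mcm5, Mcm6, and Pola1 are shown, the first 2 as ring subunits with more than 1 match, overlapping in part, and the last as the member that differed least between CN4 and XN1, written 5′ to 3′ on the strand of the gene, with the matches in capitals.
Mcm5 (chr8:75109316-75109407, plus strand): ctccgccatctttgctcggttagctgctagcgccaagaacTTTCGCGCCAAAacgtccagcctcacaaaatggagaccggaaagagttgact
Mcm6 (chr1:128359706-128359855, minus strand): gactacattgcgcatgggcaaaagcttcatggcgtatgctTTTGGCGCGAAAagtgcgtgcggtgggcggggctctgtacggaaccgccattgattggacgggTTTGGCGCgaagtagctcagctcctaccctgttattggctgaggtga
Pola1 (chrX:93632246-93632333, minus strand): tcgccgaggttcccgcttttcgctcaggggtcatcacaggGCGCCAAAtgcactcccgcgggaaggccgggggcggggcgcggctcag
The matches begin 153 bases before the start in Mcm5, 110 in Mcm6, and 138 in Pola1. Mcm6 holds 3 matches, Mcm5 2, and Pola1 1 in these windows, and their log2 ratios of CN4 over XN1 were 1.20, 1.01, and 0.25. Other members break this order. Orc1 with 1 match was at 1.33, Mcm7 with up to 2 in a window at 0.85, and Pcna with 0 at 1.37. The number of matches was not compared with the ratio over all members.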

How the data were processed

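Single-cell transcriptomes of 4 NSC lines were measured with 1 library for each, and each library was mapped to its line by its title. The 44 members, the other gene lists, and the comparisons were chosen with earlier results of these data known. Raw read counts per gene and cell were deposited by the authors for XN4, XN1, and CN4, made with the BD Rhapsody WTA Analysis Pipeline 1.12.1 on GRCm38 with the GENCODE M19 annotation. The second kind of table, deposited for every line, holds natural logs of 1 plus the reads scaled to 10000 per cell, made by the authors with Seurat 4.3.0 from up to 4000 picked cells without ribosomal protein and mitochondrial genes. These were turned back into reads, and all came out whole within 0.01. Reads are not molecules, so a level also depends on the reads per molecule.

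Levels were reads per 1000000 reads with exact Poisson intervals (95%). Ratios of levels had exact binomial intervals from the reads of both lines, and fractions of cells had exact binomial (Clopper-Pearson) intervals. All cover counting error only, and those of levels and their ratios treat each read as independent. Total reads ranged from 19271688 to 41539513 a line. Genes captured in at least 1% of cells of either line entered a comparison, and those captured in at least 1% of thinned cells entered a capture ratio. All 44 members passed both. Calls were 2-fold for levels and 1.5 for capture ratios. All members could be named. Levels in every line were given for those past 2-fold in any pair and for Pcna. The members with the 3 highest and 3 lowest ratios of each line were named, not always with values in every line. The named genes outside the list were the 10 most alike. Sox2 and the genes of the marker and replication lists are examples chosen after their values were seen. So were Mcm5, Mcm6, and Pola1 for their sequences, and Orc1, Mcm7, and Pcna beside them. Spans and overlaps came from GENCODE M21 on GRCm38; 21 members overlapped another annotated gene, 9 of them on the same strand. Computations ran in python 3.11.15 with numpy 2.4.6, scipy 1.17.1, and pandas 2.3.3 and were tested on simulated data. The alternatives were equal weight of cells, centering, the tables of all reads, other filters and thresholds, thinning, and leaving out the deepest 5% of cells as possible doublets. The fraction of thinned cells as the level and another random draw were added after seeing the data.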

Additional observations from a re-analysis of the deposited data

Results flagged for a closer look

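Prim1, the catalytic subunit of primase, was the 1 member with a capture ratio past 1.5 in one line and below its inverse in another. In KN1 it was captured in 4.76% of 189 cells with a Pcna read (exact binomial interval 2.2 to 8.85) and in 7.45% of 3207 cells without (6.57 to 8.42), a ratio of 0.639. The intervals overlap. In XN4, XN1, and CN4 the ratio was 3.23, 4.05, and 2.39. The difference between lines was not tested. In KN1 the ratio was 0.531 within groups of like gene number, 0.516 with at least 2 Pcna reads, 0.671 without the deepest cells, and 0.695 in another draw, and the last 2 values are no longer below the inverse of 1.5. With a histone read in place of Pcna it was 1.03.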

How the results depend on the processing

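No paired analysis was possible because each line is 1 library and no result comes from a test between replicates. Of 218 values of the main comparisons under an alternative, 151 stayed within 1.5 times the reported count or within the counting interval, and 67 moved. CN4 against XN1 kept 0 members lower throughout, and its members past 2-fold moved to 13 after centering (7.03% of all genes), 41 at 1.5-fold (beside 19.9% of all genes), and 11 with centered fractions (median 0.86, 6.32% of all genes). At 1.5-fold, the members higher and lower were 3 and 21 in XN4 and 4 and 21 in XN1 against KN1, 21 and 6 in CN4 against KN1, and 6 and 4 in XN4 against XN1, beside 33% and 30.5%, 33.6% and 33.3%, 33.2% and 29.8%, and 29.2% and 21.4% of all genes. In what follows, a percent in parentheses after a count of members is the share of all genes called in the same way. With equal weight of cells, the median of XN4 against KN1 was -0.69, 2 members (23.4% of all genes) were higher in XN1 than in KN1, and XN4 against XN1 had 3 lower (15%) with a median of -0.18. With thinned cells, 2 (24.4%) were higher in XN1 than in KN1, and XN4 against XN1 had 2 lower (15%) and a median of -0.18. Without the deepest cells these counts were 2 (23.3%) and 3 (14.3%). In the tables of all reads, XN4 against XN1 had 0 higher (16.7%) and a median of -0.11. With the fraction of thinned cells as the level, the members higher and lower were 8 and 1 (median 0.32) in XN4 against KN1, 17 and 2 (0.73) in XN1 against KN1, 35 and 0 (1.59) in CN4 against KN1, and 0 and 2 (-0.26) in XN4 against XN1, where 13.1% and 16.3% of all genes passed. Cdc6 (0.206), Gins3 (0.219), and Chaf1a (0.214) in XN1 against KN1 and Orc1 (0.254) in CN4 against KN1 changed sign on this scale. After centering the fractions, XN4 against KN1 had a median of -0.84, XN1 against KN1 had 0 higher (20.5%), CN4 against KN1 had 5 higher (16.6%) with a median of 0.23, and XN4 against XN1 had 0 higher (15.3%) and 2 lower (14.3%) with a median of -0.14.

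The mean members captured per cell moved with depth and threshold to 2.39 in XN4, 2.83 in XN1, 2.15 in KN1, 5.36 in CN4 at 2000 reads, 6.51 in XN4, 5.57 in XN1, 3.19 in KN1, 11.6 in CN4 without thinning, 1.18 in XN4, 1.13 in XN1, 1.77 in KN1, 2.52 in CN4 with at least 2 reads, 2.83 in XN4, 3.87 in XN1, 7.48 in CN4 in the tables of all reads, and 3.38 in XN4, 4.13 in XN1, 2.59 in KN1, 7.55 in CN4 without the deepest cells. Fewer members could be tested where capture in 5% of cells was required, and 26 of 27 in XN4 and 14 of 22 in KN1 passed with Pcna (6.99% and 21.7% of all genes) and 28 of 29 in XN4 and 12 of 23 in KN1 in G2-M cells (10.3% and 25.9%). With a histone read as the anchor, 15 members passed in CN4 (4.22% of all genes), and Prim1 (1.03) and Cdc45 (0.246) changed sides of 1 in KN1. Within groups of like gene number, 14 members passed in G2-M cells of KN1 (16.1% of all genes), and of the named ratios in G2-M cells those of Tk1, Gmnn, Rrm2, and Rfc1 in XN1 and of Ccne1 in KN1 moved. The causes were not tested. Depth limits rare members most, such as Orc1 with 98 reads in XN1. All alternatives compare the same 4 libraries and do not measure the spread between cultures.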
